A study of Mus musculus with 11 samples.

Results

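The genes described here are 10 neutrophil genes, chosen by symbol from the 10885 genes of the deposited table: S100a8, S100a9, Camp, Ngp, Ltf, Csf3r, Cxcr2, Retnlg, Itgb2l and Mmp9. All 10 were in the table, and each was read in all 11 libraries, with no filter on low values. The libraries were made by RNA-seq from all cells of the spleen or of lymph nodes (LN) of 6 mice, labelled as whole-tissue cells. Every mouse had received 3 intraperitoneal immunisations with sheep erythrocytes within 3 months, and its tissues were taken 1 month after the last. Mice 1 and 2 were wild-type (Wt), with no BCL2 insertion; mice 3 and 4 were transgenic (Tg, 3'RR-BCL2), with BCL2 driven by 3'RR, the enhancer region at the 3' end of the Igh locus; and mice 5 and 6 were knock-in (KI, Igk-BCL2), with BCL2 at the kappa light chain locus. Both insertions use regulatory elements that are active in B cells, and no group carries a change aimed at neutrophils. Spleen Tg held 1 library (mouse 4) and each of the other 5 groups held 2, one per mouse. Each number names a mouse, and both tissues of mice 1, 2, 4, 5 and 6 were read. The labels used here give no age or strain.

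Neutrophils are short-lived phagocytes that are made in bone marrow and, in mice, also at a low rate in the spleen, whose red pulp holds mature cells; a resting lymph node holds few. Their granules are filled in order during maturation: primary granules in promyelocytes, secondary granules in myelocytes and metamyelocytes, and tertiary granules in the last stages. Transcripts of primary and secondary granule proteins thus mark precursors, while the chemokine receptor Cxcr2 is transcribed later. Camp (cathelicidin, an antimicrobial peptide precursor), Ngp (neutrophilic granule protein) and Ltf (lactoferrin, which binds iron) are secondary granule genes, and Mmp9 (a gelatinase) is stored in tertiary granules. S100a8 and S100a9 encode the subunits of calprotectin, the most abundant cytosolic protein complex of neutrophils. Csf3r is the receptor for the growth factor G-CSF, and Cxcr2 is the receptor for the CXC chemokines that draw neutrophils out of bone marrow. Retnlg encodes a secreted resistin-like protein of mature mouse neutrophils, and Itgb2l an integrin beta chain related to Itgb2.

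The library labels were first read against sex-linked genes and Bcl2. Mouse 1 (Wt) had an Xist signal of 14513 in spleen and 12314 in LN and Ddx3y at 0 in both, whereas the other 5 mice had Ddx3y between 1452 and 3064 and Xist at or below 8.04. Mouse 1 was the only one with a female pattern, so sex and mouse cannot be told apart within the Wt pair. Bcl2 had a signal of 1249 and 1299 in the KI spleens against 2611 and 2427 in the Wt spleens and 2109 in the Tg spleen. In LN it was 1246 and 1664 in KI, 2338 and 2716 in Wt and 2065 and 3171 in Tg, so no group with an insertion had Bcl2 above Wt in every library; whether reads of the inserted copy were counted there was not tested. Recovered depth lay between 11128568 and 24110325 reads per library; the spleen libraries hold too few low values for the check that the LN reads passed. Tissue identity was read from genes outside the 10: all 9 T cell markers in the table were called higher in LN (for example Cd6, by 0.98 ± 0.06 on the log2 scale, limma adjusted p = 2.86e-06).

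For 9 of the 10 genes RefSeq (GRCm38.p6) gave a promoter window, from which the 250 bases before the start of transcription were searched on both strands for the C/EBP site TTGCNNAA and the PU.1 site GAGGAAGT, which are the motifs of the factors that drive granulocyte genes. The C/EBP letters were found in 4 of the 9 windows (S100a9, Ngp, Ltf and Retnlg) and in 9.56% of all 32851 windows of the table, and the PU.1 letters in 2 of the 9 (S100a8 and Itgb2l) and in 2.44% of all windows. The calprotectin pair and the granule genes Ngp and Ltf are printed because their signal ranged widest between the 6 nodes, 22.0-fold (S100a9) to 97.7-fold (Ltf), among the genes with reads in every node; capitals mark the motif matches, and the first matched base lies 172 bases before the start in S100a8 (reverse strand), 236 in S100a9, 138 and 11 in Ngp (the second on the reverse strand) and 75 in Ltf (reverse strand). The windows are chr3:90668821-90669070 (plus strand), chr3:90695722-90695971 (minus), chr9:110419558-110419807 (plus) and chr9:111019042-111019291 (plus). A match is a stretch of letters, not a measured site, and the table's build differs from the GRCm39 that the submitters' processing notes list.
S100a8: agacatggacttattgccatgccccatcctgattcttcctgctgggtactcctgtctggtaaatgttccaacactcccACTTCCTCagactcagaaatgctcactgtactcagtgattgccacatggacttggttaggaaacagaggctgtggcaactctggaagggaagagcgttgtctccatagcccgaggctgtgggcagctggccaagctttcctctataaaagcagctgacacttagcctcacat
S100a9: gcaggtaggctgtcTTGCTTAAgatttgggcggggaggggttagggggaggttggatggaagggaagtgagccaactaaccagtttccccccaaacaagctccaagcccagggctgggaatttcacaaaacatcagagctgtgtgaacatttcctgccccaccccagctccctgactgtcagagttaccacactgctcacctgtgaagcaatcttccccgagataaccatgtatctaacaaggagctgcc
Ngp: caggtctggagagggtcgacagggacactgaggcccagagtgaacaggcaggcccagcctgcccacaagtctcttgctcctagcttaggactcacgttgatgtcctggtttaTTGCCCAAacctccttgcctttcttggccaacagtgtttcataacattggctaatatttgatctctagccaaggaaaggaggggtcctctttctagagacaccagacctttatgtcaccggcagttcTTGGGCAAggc
Ltf: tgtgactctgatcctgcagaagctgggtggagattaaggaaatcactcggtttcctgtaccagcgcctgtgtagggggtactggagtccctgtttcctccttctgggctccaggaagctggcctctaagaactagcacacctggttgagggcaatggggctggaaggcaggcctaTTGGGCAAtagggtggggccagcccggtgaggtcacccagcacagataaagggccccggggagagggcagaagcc

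The first question was how the neutrophil genes differ between the tissues. All 10 were lower in LN than in spleen in 5 of the 5 mice with both tissues, and 9 of the 10 fell in the test over all libraries (limma, Benjamini-Hochberg adjusted p under 0.05 over all genes), where 9.07% of all genes were called lower in LN and 15.1% in either direction. Ltf missed the threshold. Every gene of the table reached a signal of at least 109.331 in 1 library, but Camp, Csf3r, Cxcr2, Retnlg and Itgb2l did so in no node. They are in the table through a spleen value, so counts that hold them are descriptions and no independent support for the tissue difference. The median difference of the 10 genes was -4.83 on the log2(value + 1) scale, against 0.01 for all genes, and single genes lay between -5.54 and -3.59. Values below are normalised signal, the gene's read count divided by 1 factor per library, and errors beside differences are standard errors of the fit. In whole tissue, fewer neutrophils and less RNA per neutrophil cannot be told apart.

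The receptors separated the tissues most cleanly, but both stayed below 109.331 in every node and so are in the table through a spleen value. Csf3r had a signal of 959 and 3433 in the Wt spleens, 2509 in the Tg spleen and 641 and 1163 in the KI spleens; the nodes had 40.3 and 63.4 (Wt), 45.3 and 28.7 (Tg) and 73.5 and 52.9 (KI). Every spleen lay above every node, with the lowest spleen 8.72 times the highest LN. Csf3r fell by 4.86 ± 0.47 on the log2 scale (limma adjusted p = 0.000264). Cxcr2 had a signal of 125 and 775 in the Wt spleens, 759 in the Tg spleen and 112 and 257 in the KI spleens, against node values of 14.5 and 14.2 (Wt), 9.91 and 8.44 (Tg) and 17.6 and 9.19 (KI). Its LN values spanned 2.08-fold and its lowest spleen was 6.40 times its highest LN. Each node value rested on only 7 to 16 Cxcr2 reads, so counting error alone is wide against that span. Cxcr2 fell by 4.55 ± 0.53 (limma adjusted p = 0.000238).

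The calprotectin genes spread far more between mice than the receptors did, with a highest spleen 24.8 (S100a8) and 29.5 (S100a9) times the lowest, against 5.35 for Csf3r and 6.90 for Cxcr2. S100a8 had a signal of 746 and 6943 in the Wt spleens, 6692 in the Tg spleen and 280 and 898 in the KI spleens. In LN S100a8 was 3.23 and 190 in Wt, 14.2 and 21.9 in Tg and 65.9 and 77.0 in KI. The lowest of these rested on 2 reads, with an exact 95% Poisson interval of 0.391 to 11.7 in signal, which covers counting error only. S100a9 ran alongside, with 1194 and 10891 in the Wt spleens, 10430 in the Tg spleen and 370 and 1244 in the KI spleens, and with 12.9 and 284, 19.8 and 14.3, and 113 and 105 in the Wt, Tg and KI nodes. The tissues did not overlap in either gene, but the margin was narrow: the lowest spleen was 1.47 times the highest LN for S100a8 and 1.30 times for S100a9, the spleen of KI mouse 5 and the node of Wt mouse 2 in both cases. S100a8 fell by 5.54 ± 1.36 (limma adjusted p = 0.0337) and S100a9 by 5.47 ± 1.32 (limma adjusted p = 0.0319).

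The secondary granule genes were likewise highest in the spleens of Wt mouse 2 and Tg mouse 4. Ngp had a signal of 1649 and 14580 in the Wt spleens, 10109 in the Tg spleen and 399 and 1545 in the KI spleens, against node values of 16.1 and 590 (Wt), 9.91 and 52.3 (Tg) and 142 and 123 (KI). The node of Wt mouse 2 here lay above the spleen of KI mouse 5, so the tissues overlapped. Ngp fell by 5.24 ± 1.41 (limma adjusted p = 0.0472), a call lost (limma adjusted p = 0.0517) when genes with a mean signal under 100 were left out. Ltf had a signal of 1110 and 8857 in the Wt spleens, 7699 in the Tg spleen and 249 and 1123 in the KI spleens; the nodes had 9.68 and 415 (Wt), 4.25 and 33.8 (Tg) and 111 and 66.7 (KI). It overlapped between the same 2 libraries, and its difference of -5.35 ± 1.48 was not called (limma adjusted p = 0.0533). Camp had a signal of 315 and 2537 in the Wt spleens, 1731 in the Tg spleen and 87.5 and 302 in the KI spleens, and 6.45 and 79.9, 7.08 and 7.60, and 27.4 and 29.9 in the Wt, Tg and KI nodes. Its tissues touched without overlapping, at 87.5 against 79.9, and Camp fell by 4.80 ± 1.06 (limma adjusted p = 0.0192).

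**Figure D1:**
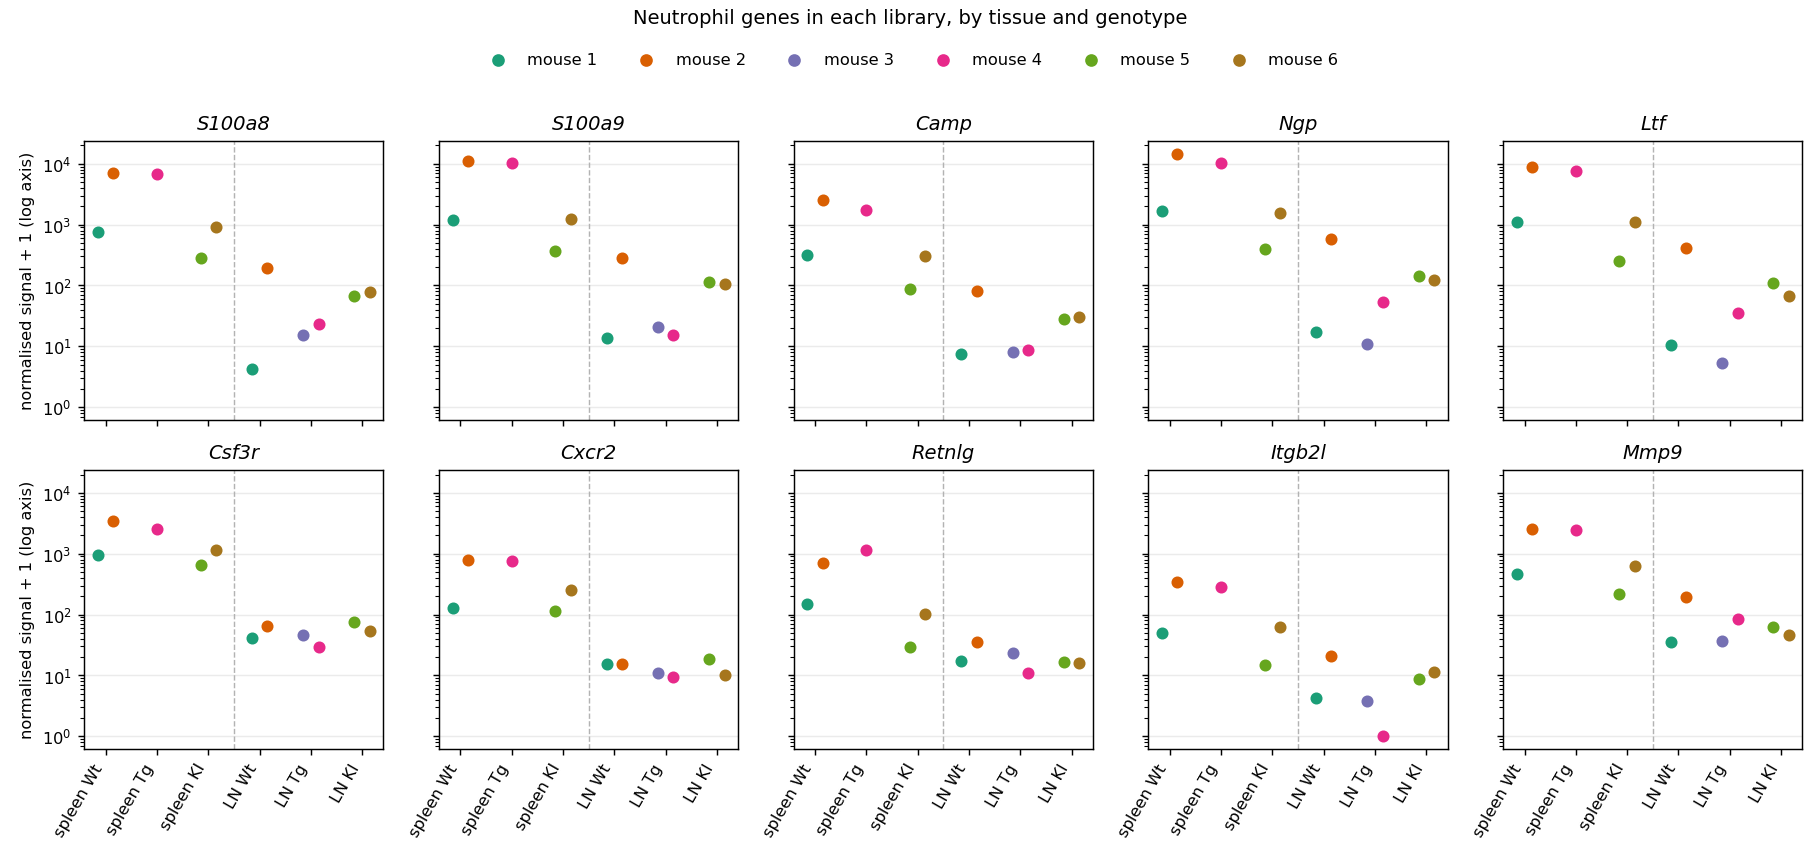
Normalised signal + 1 (log axis) of each of the 10 genes in every library, by tissue and genotype; each point is 1 library, coloured by mouse, with no error drawn. All spleen points of Csf3r and Cxcr2 lie above all LN points, while for Ngp and Ltf the node of Wt mouse 2 reaches above the spleen of KI mouse 5.

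The last 3 genes were Mmp9, Retnlg and Itgb2l, of which Itgb2l had the lowest signal in every library. Mmp9 had a signal of 458 and 2581 in the Wt spleens, 2490 in the Tg spleen and 220 and 634 in the KI spleens, and 33.9 and 190, 35.4 and 83.6, and 61.5 and 44.8 in the Wt, Tg and KI nodes; it did not overlap between tissues and fell by 3.83 ± 0.74 (limma adjusted p = 0.0111). Retnlg had a signal of 148 and 693 in the Wt spleens, 1140 in the Tg spleen and 28.3 and 101 in the KI spleens, against LN values between 10.1 and 33.9. The spleen of KI mouse 5 lay below the node of Wt mouse 2, and Retnlg fell by 3.59 ± 0.74 (limma adjusted p = 0.00984). Itgb2l had a signal of 48.3 and 345 in the Wt spleens, 284 in the Tg spleen and 13.7 and 61.6 in the KI spleens, and 3.23 and 19.7, 2.83 and 0, and 7.68 and 10.3 in the Wt, Tg and KI nodes. The node of Tg mouse 4 held 0 Itgb2l reads, with an exact 95% Poisson interval of 0 to 3.11 in signal. The node of Wt mouse 2 lay above the spleen of KI mouse 5. Itgb2l fell by 3.83 ± 0.95 (limma adjusted p = 0.0185), a call lost after quantile normalisation (-2.76, limma adjusted p = 0.139). In all, 6 of the 10 genes did not overlap between the tissues, where 4.73% of all genes lay wholly lower in LN. Among these, Camp, Csf3r and Cxcr2 stayed below 109.331 in every node and are in the table through a spleen value.

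The size of the tissue difference varied from mouse to mouse. The median of the 10 within-mouse differences was -4.97 and -4.80 in Wt mice 1 and 2, -7.61 in Tg mouse 4, and -1.67 and -3.60 in KI mice 5 and 6. In Tg mouse 4 the LN signal of S100a9 was 0.138% of that in spleen, and in KI mouse 5 it was 30.6%. Retnlg and Itgb2l of KI mouse 5 were closest between the tissues, with LN at 54.3% and 56.0% of spleen. For the receptors the same mouse kept a wider gap, with LN Csf3r at 11.5% and LN Cxcr2 at 15.6% of spleen. Fitted on KI libraries only, 2 of the 10 genes were called lower in LN, Cxcr2 (-3.64, limma adjusted p = 0.00348) and Csf3r (-3.77, limma adjusted p = 0.00465), where 5.64% of all genes were called lower. On Wt and Tg libraries only, 5 were called: Csf3r, Cxcr2, Retnlg, Itgb2l and Camp, where 10.1% of all genes were called lower. All 5 stayed below 109.331 in every node and are in the table through a spleen value. Both counts are therefore descriptions only.

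**Figure D2:**
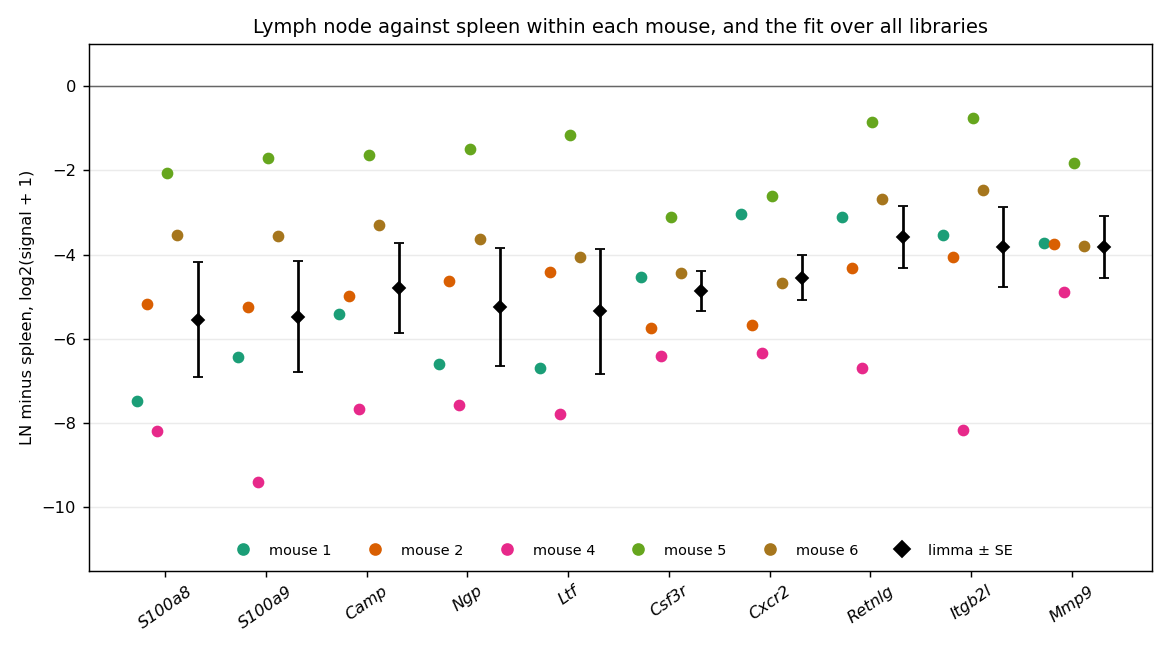
LN minus spleen on the log2(signal + 1) scale for each of the 10 genes: coloured points are the 5 mice with both tissues, black diamonds the limma estimate over all 11 libraries with its standard error. Every point lies below 0, with Tg mouse 4 lowest (median -7.61) and KI mouse 5 highest (median -1.67).

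The tissue calls rested on single libraries to different degrees. Csf3r, Cxcr2 and Retnlg were called in each of the 16 fits that left out 1 library or 1 mouse, Mmp9 in 15 (not without mouse 4), Camp in 13 (not without the spleen of Tg mouse 4, mouse 4 or mouse 6) and Itgb2l in 11. S100a9 was called in 4, S100a8 in 3 and Ngp in 2 of those 16 fits, with adjusted p-values up to 0.144, 0.163 and 0.181, although the difference stayed negative in all of them. The count of called genes was 3 without mouse 4, 4 without the spleen of Tg mouse 4, 5 without the spleen of Wt mouse 2, the node of Wt mouse 1 or KI mouse 6, and 10 without the node of Wt mouse 2. With the mouse as a fixed term of the fit, on mice with both tissues, all 10 were called, Ltf among them (-4.82, limma adjusted p = 0.0417); with the mouse as a random term 8 were, and Ngp was not (limma adjusted p = 0.0632).

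Many genes of the same granulocyte programme outside the 10 were lower in LN too. Every gene of the table reached at least 109.331 in 1 library, so a gene below that in every node is there through a spleen value. This holds for Camp, Csf3r, Cxcr2, Retnlg and Itgb2l as well. The counts of lower genes, above and in this and the next paragraphs, are therefore descriptions and no independent support for the tissue difference. Among 9 primary granule genes 6 were called lower in LN, with a list median of -3.52. Elane, the neutrophil elastase of promyelocytes, had a signal of 29.2 to 459 in spleen and 0 to 9.85 in LN and fell by 4.92 ± 1.01 (limma adjusted p = 0.00648). Prtn3, the related proteinase, fell by 4.78 ± 1.08 (limma adjusted p = 0.0113), but not without the spleen or both libraries of Tg mouse 4 (limma adjusted p up to 0.0742) or after quantile normalisation (limma adjusted p = 0.0529). Of the 7 secondary granule genes that are no members, 7 fell: Hp (haptoglobin) had a difference of -4.52 ± 0.75 (limma adjusted p = 0.00473) and the chitinase-like Chil3 one of -4.70 ± 0.90 (limma adjusted p = 0.0105). Among 9 other tertiary granule and secretory vesicle genes 4 fell, among them Itgam, the alpha chain of a complement receptor, at -2.81 ± 0.28 (limma adjusted p = 5.1e-05). The list holds genes that lymphocytes and stroma also express, and its median without Mmp9 was -1.31.

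Surface receptors and transcripts of mature cells were mostly lower in LN too. Of the 19 other receptor genes, 16 fell and 1 was called higher (Selplg, the selectin ligand that T cells carry as well). Fcgr4, an activating receptor for immunoglobulin G, fell by 4.97 ± 0.50 (limma adjusted p = 5.33e-05), and Trem1, which amplifies inflammatory signals, fell by 4.30 ± 0.52 (limma adjusted p = 0.000221). Of the 13 other mature neutrophil transcripts 10 fell, such as the nicotinic acid receptor Hcar2 at -6.36 ± 0.58 (limma adjusted p = 3.05e-05) and the cytokine Il1b at -4.55 ± 0.45 (limma adjusted p = 0.000226). Only 3 of the 12 listed ligands and growth factors were in the table. The chemokine Cxcl2, a ligand of Cxcr2, fell by 3.58 ± 0.85 (limma adjusted p = 0.0178), though not in 6 of the 16 fits that left out a library or mouse: without the node or both libraries of Wt mouse 1 or Wt mouse 2, and without the spleen or both libraries of Tg mouse 4. Cxcl2 also missed the threshold with the mouse as a fixed term (-3.47, limma adjusted p = 0.0585) and after quantile normalisation (limma adjusted p = 0.0566). The platelet chemokine Ppbp was listed at 0 in all 6 nodes.

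The transcription factors of granulocytes showed smaller estimates between the tissues; most are shared with other blood cells. Among 9 factors 5 fell, with a list median of -0.51: Cebpd at -2.14 ± 0.37 (limma adjusted p = 0.00217), Cebpb at -1.31 ± 0.28 (limma adjusted p = 0.0133) and Spi1, which encodes PU.1, at -0.81 ± 0.12 (limma adjusted p = 0.000685). Cebpb was not called without the spleen or both libraries of Tg mouse 4 (limma adjusted p up to 0.0766). Among the 6 genes of NADPH oxidase, the enzyme of the respiratory burst, 5 fell. Of 5 other S100 genes 2 fell, S100a6 at -1.57 ± 0.20 (limma adjusted p = 0.000288) and S100a11 at -0.82 ± 0.13 (limma adjusted p = 0.00125). Among 8 other beta2 integrin genes and partners 3 fell, and Itgad, which red pulp macrophages also express, fell by 4.04 ± 0.22 (limma adjusted p = 2.5e-06).

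Markers of several other cells were also lower in LN, and their part in the neutrophil result was not tested. Lower in LN were 7 of 8 granulocyte progenitor markers, 3 of 5 eosinophil, 5 of 5 basophil or mast cell, 8 of 9 monocyte, 10 of 12 macrophage, 4 of 12 erythroid, 3 of 3 platelet, 7 of 7 B cell and 4 of 6 NK cell markers in the table, where 9.07% of all genes were called lower. Other markers did not move this way. Of 7 plasma cell markers 0 were called, and of 8 dendritic cell markers 1 was called lower and 1 higher. Of the macrophage markers 1 was called higher, as were all 9 T cell markers. The summed signal of the macrophage markers was 5828 to 7726 in spleen and 673 to 2660 in LN, that of the monocyte markers 6557 to 8975 and 2489 to 5892. Pf4 and Ppbp, defining transcripts of platelets, were at 0 in every node. Chromosomal neighbours of the granule genes gave another comparison: apart from Ngp, the 14 tabulated genes that RefSeq places between Camp and Ltf on chromosome 9 had differences from -0.24 to 1.22, with a median of 0.09, and the 2 that were called were higher in LN.

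The next question was whether BCL2 knocked in at the kappa locus went with other levels of the neutrophil genes in spleen. None of the 10 passed the test between KI and Wt spleen (limma, 0 called, 1 at an unadjusted p under 0.05), where 16.8% of all genes were called. All 10 estimates were negative, with a median of -2.29 against 0.01 for all genes, between -2.64 (Ngp) and -0.87 (Cxcr2). The lowest adjusted p was that of Retnlg, -2.55 ± 0.83 (limma adjusted p = 0.0715). Camp, Ngp and Retnlg had both KI spleens below both Wt spleens, 3 of 10, where 31.9% of all genes lay wholly lower, so the separation was no more common here than among all genes.

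The Wt spleens were far apart in these genes. Mouse 2 exceeded mouse 1 by 9.30-fold in S100a8, 9.12-fold in S100a9, 8.84-fold in Ngp, 8.06-fold in Camp and 3.58-fold in Csf3r, and all 10 genes were over 3-fold apart on the log2(value + 1) scale, as were 1.15% of all genes. The KI spleens differed the same way: mouse 6 exceeded mouse 5 by 1.81-fold in Csf3r to 4.51-fold in Ltf, with 7 of 10 genes over 3-fold apart (1.57% of all genes). The spleen of the female Wt mouse 1 had values near those of KI mouse 6 in some genes, such as 1649 against 1545 for Ngp and 1110 against 1123 for Ltf. Others were farther apart, in both directions, such as 125 against 257 for Cxcr2 and 148 against 101 for Retnlg. Wt mouse 2 and Tg mouse 4 were both high. Without the spleen of Wt mouse 1, Retnlg (-3.67, limma adjusted p = 0.0328) and Csf3r (-1.99, limma adjusted p = 0.0393) were called lower in KI, and without both libraries of that mouse Camp was too (-3.95, limma adjusted p = 0.0166). Without the spleen of Wt mouse 2 the median was -0.76, 0 were called, and Cxcr2 turned to 0.44.

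Some genes of the neutrophil lists outside the 10 fell in KI spleen, where 9.21% of all genes were called lower. The calls were few in the granule lists, with 1 of 9 primary granule genes (Srgn, the proteoglycan serglycin of many blood cells, -0.70 ± 0.15, limma adjusted p = 0.012) and 1 of 9 other tertiary granule genes (the surface protease Adam8, -1.41 ± 0.30, limma adjusted p = 0.0166). Among the 7 other secondary granule genes the smallest p-values were those of Cd177 (-2.26 ± 1.02, limma adjusted p = 0.19) and the collagenase Mmp8 (-2.31 ± 1.12, limma adjusted p = 0.2), neither of them called. Of 19 other surface genes 3 fell, among them Trem1 at -3.38 ± 0.73 (limma adjusted p = 0.0121) and the decoy receptor Il1r2 at -1.59 ± 0.40 (limma adjusted p = 0.0212). Trem1 had a signal of 185 and 562 in the Wt spleens, 623 in the Tg spleen and 18.9 and 47.3 in the KI spleens, with no overlap. Of 13 other mature transcripts 4 fell, such as the lipolysis inhibitor G0s2 at -2.16 ± 0.56 (limma adjusted p = 0.0253), Il1b at -2.21 ± 0.57 (limma adjusted p = 0.0398) and Hdc, the histidine decarboxylase that basophils express as well, at -2.56 ± 0.70 (limma adjusted p = 0.0429).

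Cxcl2 was lower in both KI spleens than in the others, with a signal of 521 and 1111 in Wt, 1775 in Tg and 12.0 and 1.43 in KI. The last value rests on very few reads, as 1 read equals a recovered signal of 0.716 in that library. Between KI and Wt spleen Cxcl2 fell by 7.08 ± 0.76 (limma adjusted p = 0.000478), where 31.9% of all genes lay wholly lower. Of the 9 transcription factors 3 fell: Gfi1, a repressor needed for granulocyte maturation and also made by T cells, at -1.97 ± 0.24 (limma adjusted p = 0.000955), Cebpb at -1.93 ± 0.37 (limma adjusted p = 0.0166) and Cebpa at -0.73 ± 0.19 (limma adjusted p = 0.0246). Of the 9 surface, mature, chemokine and transcription factor genes given above as lower in KI spleen, only Cxcl2 and Gfi1 were called in every one of the 16 fits that left out a library or a mouse; each of the others lost its call without the spleen of Wt mouse 2 and without 1 or both of the KI spleens. Their adjusted p-values reached between 0.11 (Trem1) and 0.236 (Hdc) in such fits. Fitted on the spleen libraries alone, 5 of the 9 missed the threshold: G0s2 (limma adjusted p = 0.0587), Cxcl2 (0.0716), Trem1 (0.119), Hdc (0.253) and Il1b (0.259). Srgn lost its call without any 1 of the Wt or KI spleens (limma adjusted p up to 0.0895), and Adam8 without the spleen of Wt mouse 2 or KI mouse 5 (limma adjusted p up to 0.107) and on the spleen libraries alone (0.141). Of the 6 NADPH oxidase genes 1 fell, Rac2, a small GTPase of blood cells (-0.41 ± 0.11, limma adjusted p = 0.031), but not without any 1 of the Wt or KI spleens (limma adjusted p up to 0.244), after quantile normalisation (0.139) or after rescaling without immunoglobulin and haemoglobin genes (0.0586). Of the 8 other integrin genes and partners 1 rose, the adhesion ligand Icam2 (0.62 ± 0.15, limma adjusted p = 0.0191), which was not called without the spleen of Wt mouse 2 or of either KI mouse (limma adjusted p up to 0.168). Hdc also missed the threshold after quantile normalisation (limma adjusted p = 0.0524). All 9 T cell markers were lower in KI spleen as well, with a summed signal of 15601 and 16725 in KI against 33367 and 34328 in Wt, and 6 of 7 plasma cell markers were higher. Erythroid markers summed to 28302 in KI mouse 5 and to 2654 to 5387 in the other spleens. The part of these shifts in the neutrophil genes was not tested.

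**Figure D3:**
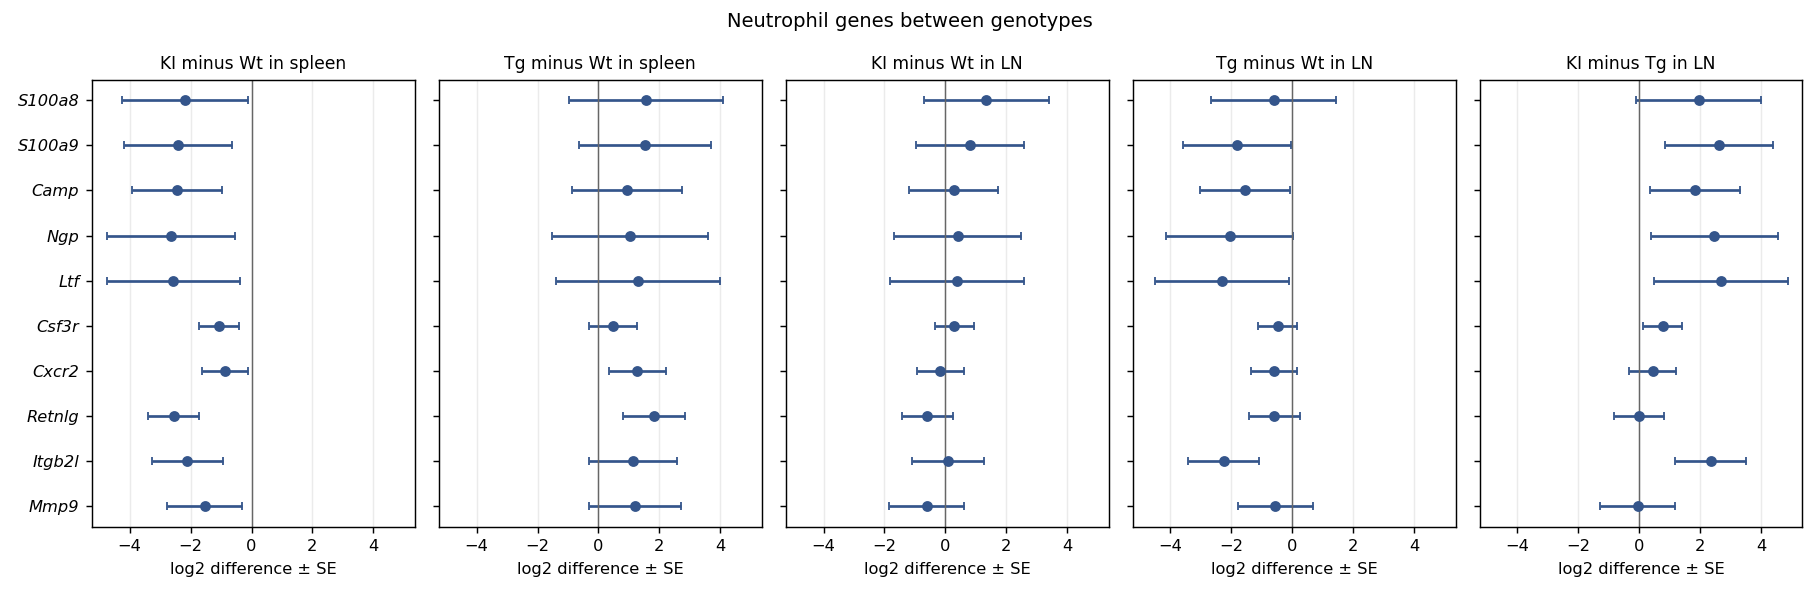
Differences between genotypes for the 10 genes, in spleen and in LN, on the log2(signal + 1) scale; points are limma estimates and bars their standard errors. All 10 estimates are negative for KI minus Wt in spleen (median -2.29) and positive for Tg minus Wt in spleen (median 1.24), and none of the differences was called.

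In LN the KI and Wt mice gave no common direction. None of the 10 was called (limma, 0 at an unadjusted p under 0.05, and 0 by edgeR or DESeq2 on recovered reads), where 26% of all genes were; 7 estimates were positive and 3 negative, with a median of 0.28. On recovered reads the sign of 6 of the positive estimates turned (S100a8, S100a9, Camp, Ngp, Ltf and Itgb2l), and the median was -0.56 by edgeR and -0.52 by DESeq2. The node of Wt mouse 2 was the highest of the 6 nodes in 8 of the 10 genes, and that of Wt mouse 1 was the lowest or near it in the calprotectin and granule genes. Retnlg alone had both KI nodes below both Wt nodes, where 34.8% of all genes lay wholly lower. Leaving out the node of Wt mouse 2 gave a median of 1.61, and leaving out that of Wt mouse 1 gave -1.39. Without both libraries of mouse 2, S100a8 (4.10, limma adjusted p = 0.0133) and S100a9 (2.98, limma adjusted p = 0.0499) were called higher in KI. The 2 KI nodes resembled each other in these genes more than the Wt nodes did: 0 of 10 genes were over 3-fold apart in KI and 7 in Wt (1.65% and 1.2% of all genes), with 3 in Tg (0.873%).

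In the wider lists genes were called in both directions, and many of them are ones that other cells express too. Called higher and lower were 4 and 3 of 19 other surface genes and 2 and 2 of 9 other tertiary granule genes. Of the 6 NADPH oxidase genes 1 was called higher and 3 lower, where 26% of all genes were called in either direction. Alpl (alkaline phosphatase) rose by 2.76 ± 0.40 (limma adjusted p = 0.000797), from 35.5 and 18.6 in Wt to 227 and 143 in KI. Slpi (a leukocyte protease inhibitor) rose by 4.32 ± 0.73 (limma adjusted p = 0.011), from 518 and 356 to 9784 and 7582. Tlr4, the receptor for endotoxin, rose by 1.54 ± 0.20 (limma adjusted p = 0.000469), and Cybb, the catalytic subunit of the NADPH oxidase, by 0.96 ± 0.14 (limma adjusted p = 0.000862). The other called oxidase genes were lower in KI: Rac2 (-0.67), Cyba (-0.43) and Ncf4 (-0.38). Cxcl2 fell by 2.47 ± 0.76 (limma adjusted p = 0.0367), with a mean signal of 17.9 in the Wt nodes and 2.77 in the KI nodes. Of the 11 neutrophil markers 0 were called higher and 1 lower, Trem1, at -2.28 ± 0.73 (limma adjusted p = 0.0418). Its mean signal was 17.2 in the Wt nodes and 2.25 in the KI nodes. A single read equals a signal of 1.10 in the node of KI mouse 5 and 1.15 in that of KI mouse 6. The KI means of Trem1 and Cxcl2 thus rest on very few reads. Alpl, Tlr4 and Cybb were called in every fit that left out a library or mouse; Slpi was not without the node of Wt mouse 2 or of either KI mouse, and Cxcl2 not without the node of either Wt mouse, the node of KI mouse 6 or both libraries of Tg mouse 4 (limma adjusted p up to 0.111 and 0.209). All 7 plasma cell markers were higher in KI nodes, with a summed signal of 140252 and 145503 in KI against 5242 and 6676 in Wt, and 8 of 12 macrophage markers were lower. Rescaling the values without the immunoglobulin and haemoglobin genes moved the median of all genes in KI minus Wt in LN from -0.02 to 0.12. It changed the sign of none of Alpl, Slpi, Tlr4, Cybb and Cxcl2.

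Tg and Wt were set side by side next. In LN 0 of 10 genes were called, also by edgeR or DESeq2, and 0 had an unadjusted p under 0.05 (limma called 0% of all genes, with 532 at an unadjusted p under 0.05); all 10 estimates were negative and the median was -1.08, between -2.30 (Ltf) and -0.48 (Csf3r). On recovered reads that median was -2.49 by edgeR and -2.48 by DESeq2. The Tg nodes lay below both Wt nodes in Cxcr2 and Itgb2l, where 14.6% of all genes lay wholly lower, and overlapped them in the other 8. Both separations rested on few reads. Cxcr2 had 9 and 13 reads in the Wt nodes and 7 and 10 in the Tg nodes. Itgb2l had 2 reads both in the node of Wt mouse 1 and in that of Tg mouse 3. Without the node of Wt mouse 2 the median was 0.25, and without that of Wt mouse 1 it was -3.32. In spleen, with 1 Tg library that the fit takes to vary like the other groups, 0 of 10 were called and 0 had an unadjusted p under 0.05 (limma called 0% of all genes, with 164 at an unadjusted p under 0.05). All 10 estimates were positive, between 0.47 (Csf3r) and 1.83 (Retnlg), and the Tg spleen lay within the Wt pair in each gene but Retnlg, at 1140 against 148 and 693, where 32.3% of all genes lay wholly higher. Without the spleen of Wt mouse 1 the median was -0.13. Between KI and Tg in LN the median was 1.89 and 0 of 10 were called, also by edgeR or DESeq2, where limma called 26.7% of all genes (0 of the 10 had an unadjusted p under 0.05). In 7 of the 10 genes both KI nodes lay above both Tg nodes, and 32.7% of all genes lay wholly higher. Without both libraries of Wt mouse 2, which take part only through the estimate of the spread, Camp (1.83, limma adjusted p = 0.045), S100a8 (1.95, limma adjusted p = 0.0481) and S100a9 (2.62, limma adjusted p = 0.0288) were called higher in KI, and without those of Wt mouse 1 Camp was (limma adjusted p = 0.0446).

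Whether the KI difference itself was unlike in the tissues was tested as an interaction. All 10 estimates were positive, that is, KI minus Wt was higher in LN than in spleen, with a median of 2.46, a range from 0.71 (Cxcr2) to 3.52 (S100a8), and none called (limma adjusted p from 0.513 to 0.878; 0 at an unadjusted p under 0.05). Of all genes 0.955% were called. With the mouse as a fixed term, Camp was called (2.72, limma adjusted p = 0.0261), and the count over all genes was 586 in place of 104. These values share the libraries of the KI and tissue comparisons above.

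The 10 genes did not keep a fixed proportion to each other. The mean log2(signal + 1) of the granule genes Camp, Ngp and Ltf minus that of the receptors Csf3r and Cxcr2 was 1.26 and 2.08 in the Wt spleens, 1.89 in the Tg spleen and -0.38 and 0.56 in the KI spleens. In LN it was -1.19 and 3.11 in Wt, -1.54 and 0.59 in Tg and 1.05 and 1.44 in KI. Both KI spleens were thus below the other 3 spleens, and the node of Wt mouse 2 was highest of all 11 libraries. The ratio of Ngp to Cxcr2 signal, which is not corrected for length and is compared only between libraries, was 3.55 and 6.01 in the KI spleens and 13.2, 18.8 and 13.3 in the Wt and Tg spleens. In LN that ratio ran from 1 in Tg mouse 3, where it rested on 7 reads of each gene, to 41.5 in Wt mouse 2. This split by role was chosen after the values were seen and carries no test.

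**Figure D4:**
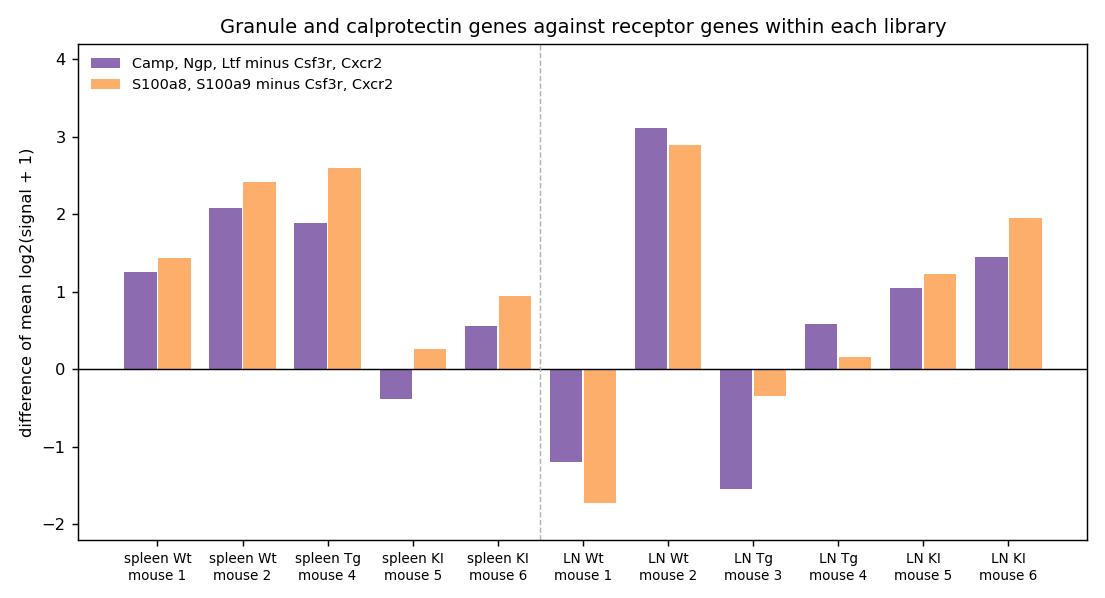
Mean log2(signal + 1) of the granule genes (purple) and of the calprotectin genes (orange) minus that of the receptor genes Csf3r and Cxcr2, in each of the 11 libraries; bars start at 0 and single libraries have no error. The KI spleens have the lowest purple bars of the spleens, at -0.38 and 0.56, and the node of Wt mouse 2 the highest of all, at 3.11.

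Genes of the same kind stayed closer to each other. The ratio of Ngp to Ltf signal lay between 1.31 and 1.65 in the 5 spleens and between 1.28 and 2.33 in the 6 nodes. The ratio of S100a9 to S100a8 signal lay between 1.32 and 1.60 in the 5 spleens; in LN it ran from 0.654 in Tg mouse 4 to 4 in Wt mouse 1, where it rested on 8 and 2 reads. Per kilobase of exon (GENCODE M21 lengths), S100a9 was the highest of the 10 genes in all 5 spleens, from 708 in KI mouse 5 to 20865 in Wt mouse 2, and Itgb2l was the lowest in all 5, from 3.17 to 79.7. The summed signal of the 10 genes took 0.0137% to 0.292% of a spleen library and 0.000872% to 0.0104% of an LN library. Reads behind single genes ran from 16 to 18537 in spleen, where the recovery could not be checked on low values, and from 0 to 539 in LN, so LN ratios carry much more counting error.

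Over the 11 libraries, which include the tissue difference, the 10 genes were correlated, and closely so in spleen but less in LN; this is given as a description because the libraries of a mouse and of a tissue are not independent. Pearson's r of log2(signal + 1) between pairs of them ran from 0.880 to 0.999, with a median of 0.940 over 45 pairs. Over the 5 spleens it was at least 0.908, with a median of 0.988, and over the 6 nodes from 0.113 (S100a8 with Cxcr2) to 0.996 (Ngp with Ltf), with a median of 0.651. Camp was the gene closest to the mean of the others (r = 0.996) and Retnlg the farthest (r = 0.937). Outside the 10, 85 of 10875 genes had an r over 0.9 with their mean pattern. The 10 most alike were Hp (r = 0.994), Chil3 (0.994), Fcnb (0.993), Cd177 (0.989), Chil1 (0.988), Il36g (0.988), Mmp8 (0.986), Ifitm6 (0.984), Lcn2 (0.983) and Elane (0.980). Lcn2, an iron-siderophore binding protein of secondary granules, had a signal of 371 and 4243 in the Wt spleens, 3895 in the Tg spleen, 95.2 and 410 in the KI spleens; the nodes had 4.84 and 184 (Wt), 2.83 and 13.5 (Tg) and 27.4 and 32.2 (KI).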

How the data were processed

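RNA from dissociated spleen and LN cells was made into libraries with a SMARTER mRNA kit, per the labels' protocols. Listed in the submitters' processing notes are FastQC 0.11.5, STAR 2.5, featureCounts, Subread 1.4.6, DESeq2 1.26.0 and GRCm39; the annotation, strandedness and any filter on genes are not given in the sources used here. Values are a normalised signal, in which the authors scaled each deposited library of read counts by a single factor, as the values show (100% whole multiples within 0.05 reads). Every gene reached at least 109.331 in 1 library. Reads recovered this way passed a check on low values in LN; the spleen libraries hold too few low values for it.

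Log2(value + 1) was fitted with limma 3.58.1 (R 4.3.3; trend, robust) over 6 groups of tissue and genotype, and with tissue and genotype as additive terms for LN minus spleen; p-values were Benjamini-Hochberg adjusted over 10885 genes at 0.05. The fit was tested on simulated data. An edgeR test would have been used for raw counts. The replicate number follows the subject in the labels, so spleen and LN are paired by animal: deviations of the 2 tissues correlated over genes at 0.403 (Wt) and 0.900 (KI), and the consensus correlation was 0.0168 over the 6 groups and -0.128 with tissue and genotype as terms. Replicates are separate mice. The members and the gene lists were chosen with earlier results of these data known. Named were the 10 genes, from each list up to 3 called genes of smallest p (or 2 where none was called), Bcl2, and the 10 genes most alike by Pearson's r with the mean z-score; sex genes and Pf4 were added after values were seen. Some genes under this rule are not reported here.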

Additional observations from a re-analysis of the deposited data

How the results depend on the processing

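The alternatives were pseudocounts of 0.1 and 5, a mean signal of at least 100, 3 rescalings (TMM, without immunoglobulin and haemoglobin genes, quantile), 1 tissue only, mouse terms, edgeR 4.0.16 and DESeq2 1.42.0 on recovered LN reads, and leaving out each library or mouse. No alternative turned the sign of any of the 10 genes in LN minus spleen; the median stayed between -5.39 and -4.04 without any 1 library or mouse, and between 3 and 10 genes were called. On Wt and Tg libraries 5 were called and on KI libraries 2; with genes of mean signal under 100 left out, which drops Itgb2l, 7 were. The replicate block, with mouse as a fixed term, raised the genes called in the difference of the KI effects from 104 to 586. It raised the neutrophil genes called there from 0 to 1 (Camp). As given in the report it also changed the tissue calls of Ltf, Cxcl2 and (random term) Ngp, and no other call that was followed through these fits. The calls of Trem1, Rac2, Cyba and Ncf4 in KI minus Wt in LN are not among those followed. By DESeq2 28 genes were called in Tg minus Wt in LN, against 0 by limma.

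Without each library or mouse in turn, all genes called ranged over 1073 to 1742 (LN minus spleen), 624 to 2364 (KI minus Wt in spleen), 1318 to 3295 (KI minus Wt in LN), 0 to 7 (Tg minus Wt in spleen), 0 to 22 (Tg minus Wt in LN), 1228 to 2900 (KI minus Tg in LN), 3 to 163 (the difference of the KI effects), and neutrophil genes called over 0 to 3 (KI minus Wt in spleen), 0 to 2 (KI minus Wt in LN), 0 to 3 (KI minus Tg in LN). Signs that turned, with the range of log2 differences over these fits, were as follows. In KI minus Wt in spleen, Cxcr2 ranged over -2.18 to 0.44. In KI minus Wt in LN, Camp ranged over -1.45 to 1.99, Csf3r -0.025 to 0.62, Cxcr2 -0.59 to 0.27, Itgb2l -1.06 to 1.23, Ltf -2.26 to 3.03, Mmp9 -1.84 to 0.62, Ngp -2.15 to 2.96, S100a8 -1.41 to 4.10, S100a9 -1.38 to 2.98. In Tg minus Wt in spleen, Camp ranged over -0.55 to 2.46, Csf3r -0.45 to 1.39, Cxcr2 -0.029 to 2.59, Itgb2l -0.28 to 2.53, Ltf -0.20 to 2.79, Mmp9 -0.052 to 2.44, Ngp -0.53 to 2.62, S100a8 -0.053 to 3.16, S100a9 -0.062 to 3.13. In Tg minus Wt in LN, Camp ranged over -3.28 to 0.16, Ltf -4.94 to 0.34, Mmp9 -1.79 to 0.67, Ngp -4.61 to 0.49, S100a8 -3.36 to 2.14, S100a9 -4.00 to 0.36. In KI minus Tg in LN, Mmp9 ranged over -0.66 to 0.56, Retnlg -0.55 to 0.54. In the difference of the KI effects, Cxcr2 ranged over -0.61 to 2.03, Mmp9 -0.32 to 2.18. In KI minus Wt in LN signs also turned on recovered reads, with edgeR giving Itgb2l -0.43, Ngp -1.21, Ltf -1.28, Camp -0.64, S100a8 -0.47, S100a9 -0.48 and DESeq2 Itgb2l -0.36, Ngp -1.19, Ltf -1.26, Camp -0.60, S100a8 -0.44, S100a9 -0.45, with a pseudocount of 5 (Itgb2l -0.031) and after quantile normalisation (Ngp -0.016, Ltf -0.013). In KI minus Tg in LN they turned after rescaling without immunoglobulin and haemoglobin genes (Mmp9 0.049, Retnlg 0.090) and after quantile normalisation (Retnlg 0.097). That rescaling moved the median of all genes from -0.02 to 0.12 in KI minus Wt in LN, from 0.01 to 0.10 in KI minus Wt in spleen and from 0.01 to 0.12 in KI minus Tg in LN; calls higher and lower were then 2192 and 837 in place of 1502 and 1331, 1461 and 758 in place of 830 and 1003, and 2170 and 971 in place of 1580 and 1330. The cause of these changes was not tested. Depth limits the LN values, where single genes rested on 0 to 539 reads.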
